A study of Sus scrofa with 12 samples.

Results

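The genes described here take up fatty acids, carry them inside the cell and store them as droplets, and were read in the ovaries of pregnant sows: PPARG, FABP3, FABP4, FABP5, PLIN2, LPL, ADIPOQ and CD36. They were taken by symbol, as every probe set whose single gene symbol in the array annotation was one of these 8 names, out of 6765 genes with such a probe set. This gave 9 probe sets of 7 genes. No probe set carried CD36 as its single symbol, and this fatty acid transporter was not analysed here. Of the 9 probe sets, 7 passed the filter of a log2 value above 4 in at least 6 of the 12 sows and were tested, and they stand for 5 genes. FABP4 and ADIPOQ did not pass.

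The samples are ovaries of 12 sows of an F2 cross of Iberian and Meishan pigs, slaughtered on day 30 of pregnancy. The high prolificacy group holds 6 sows labelled with a higher EBV (the estimated breeding value), and the low prolificacy group 6 sows of the same cross and day. All sows were pregnant, so neither group is a non-pregnant control. Each sow gave 1 Affymetrix porcine array, whose sample is described as an average over both ovaries, and the sows are numbered 1 to 6 in each group as the labels number them. Values are log2 expression after GCRMA, so a difference of 1 is a doubling, and the text gives differences as high minus low prolificacy. The question put to these genes is whether their ovarian transcripts differ with the prolificacy group.

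PPARG is a nuclear receptor that binds fatty acids and their derivatives and turns on genes of lipid uptake and storage, FABP4, PLIN2, LPL and CD36 among its known targets. Lipoprotein lipase frees fatty acids from circulating lipoproteins, CD36 takes them across the membrane, fatty acid binding proteins carry them in the cytosol, and perilipin 2 coats the droplets in which they are stored as esters. In the ovary, luteal cells hold lipid droplets as a store for steroid synthesis, and PPARG is best known from granulosa cells of the follicle.

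The arrays were alike in level, with 55.5% to 56.4% of probe sets above 4. The mean rank correlation of an array with the others was lowest in high 3 at 0.981 and in high 2 at 0.982, and lay between 0.986 and 0.989 in the other 10 sows when rounded. The 3' minus 5' difference of the actin control, a measure of RNA integrity, ran from 1.95 to 3.23 in high and from 1.97 to 2.35 in low prolificacy sows, with the highest values in high 2 and high 4. ALB, the liver's plasma albumin, was above 6 in high 5, low 1, low 3 and low 4. Luteal markers, such as STAR, were bright in every sow: 11 of 11 on the array passed the filter, and their mean ran from 12.35 to 12.73 in high and from 12.32 to 12.71 in low. Since the tissue is whole ovary, fewer cells of a type and less RNA per cell cannot be told apart in any value below.

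No lipid storage or fatty acid binding gene rose or fell between the groups at the adjusted threshold. With limma and Benjamini-Hochberg adjustment over 13390 probe sets, 0 of the 7 tested probe sets passed an adjusted p of 0.05. Over the whole array 0 probe sets passed (0%), and 755 (5.64%) had an unadjusted p under 0.05, where 0 of the 7 did. The high and low groups did not overlap in 63 probe sets (0.471%), and they overlapped in all 9 probe sets described here. The median difference of the 5 tested genes was -0.022, beside -0.027 over all 5079 tested genes.

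**Figure D1:**
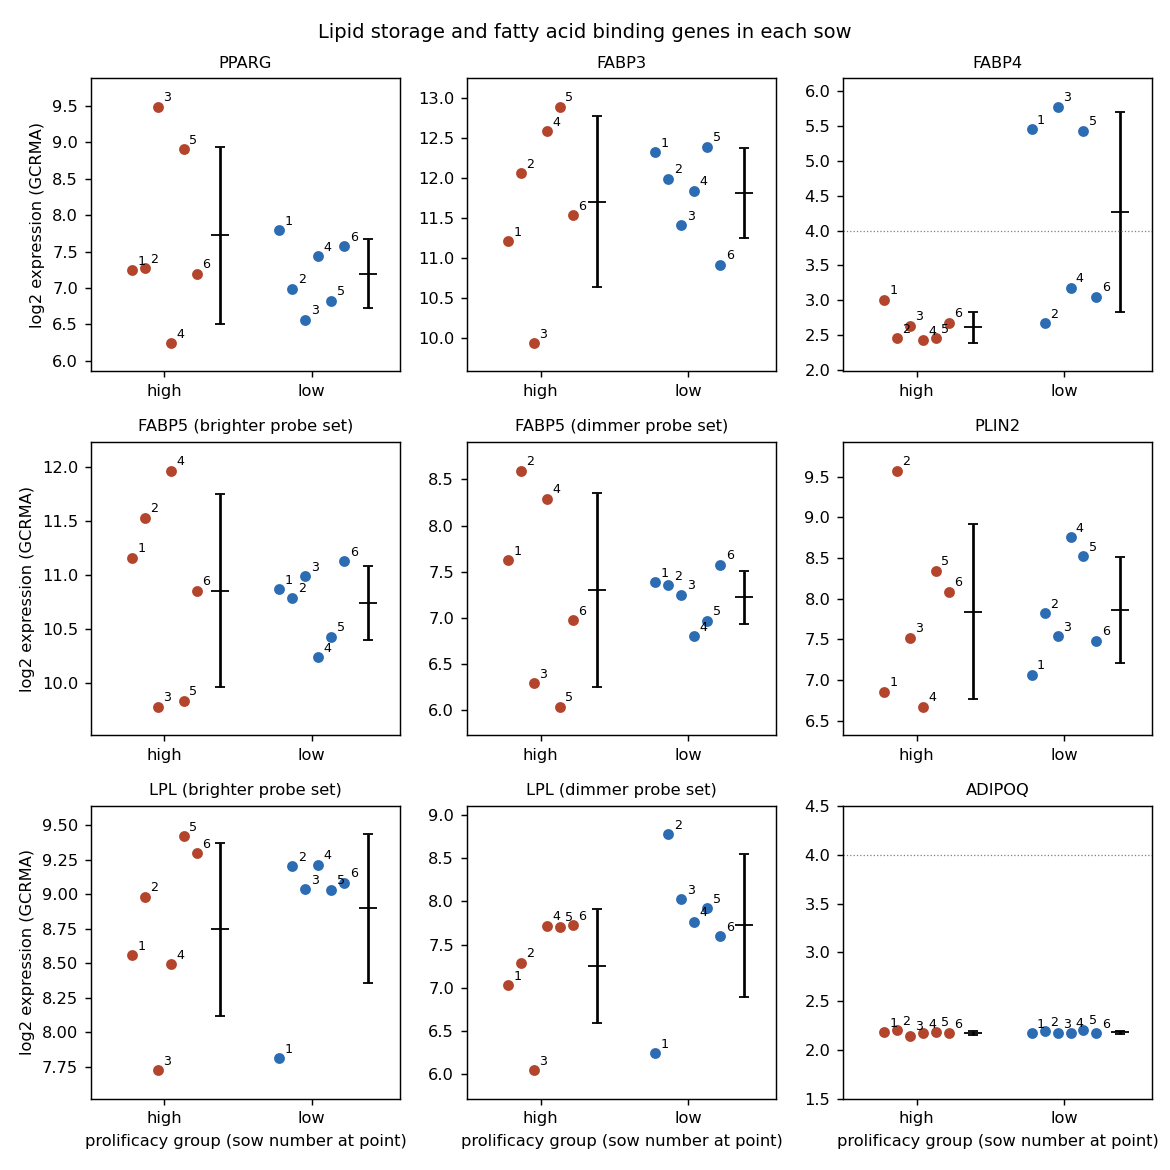
Log2 expression (GCRMA) of the 9 probe sets in each sow, with the sow's number at its point, red for high and blue for low prolificacy. Bars give the mean and SD of 6 sows, each panel has its own axis, and the dotted line marks the level of 4 in the panels of FABP4 and ADIPOQ. FABP4 was above 4 in low 1, low 3 and low 5 and in no high prolificacy sow, and the groups overlap in every panel.

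PPARG, the transcription factor of the set, ran in high prolificacy sows from 6.25 through a median of 7.26 to 9.49, and in low prolificacy sows from 6.56 through 7.22 to 7.79. High 3 at 9.49 and high 5 at 8.91 stood above all other sows, and high 4 stood lowest. All 6 low prolificacy sows lay inside the range of the high group. The means were 7.73 ± 1.22 and 7.20 ± 0.48 (SD, n = 6 each), a difference of 0.53 (1.44-fold) with a 95% interval from -0.51 to 1.57. This was not a change by limma (Benjamini-Hochberg adjusted p = 0.931) or by an exact permutation test over all assignments of the sows to groups (two-sided p = 0.361). Without high 3 the difference was 0.18, and with the actin 3' minus 5' difference as a covariate it was 1.33 (limma with Benjamini-Hochberg, adjusted p = 0.242).

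Among the genes that bring fatty acids to the cell, LPL was read by a pair of probe sets. The brighter ran from 7.73 through 8.77 to 9.42 in high and from 7.81 through 9.06 to 9.21 in low prolificacy sows. High 3 and low 1 stood apart at the bottom, and the other low prolificacy sows lay close together, between 9.03 and 9.21. The means were 8.74 ± 0.62 and 8.90 ± 0.54, a difference of -0.15 (95% interval -0.82 to 0.51). With limma and Benjamini-Hochberg adjustment p was 0.985, and the exact permutation p was 0.639.

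The dimmer LPL probe set ran from 6.04 through 7.50 to 7.72 in high and from 6.24 through 7.84 to 8.78 in low prolificacy sows. Again high 3 and low 1 were the lowest, while low 2, low 3, low 5 and low 4 stood above every high prolificacy sow. The means were 7.25 ± 0.66 and 7.72 ± 0.83, a difference of -0.47 (95% interval -1.32 to 0.38, limma with Benjamini-Hochberg, adjusted p = 0.929). Without low 1 it was -0.77 and without high 3 it was -0.23, so a single sow of either group moved it by more than 1.5 times. The pair of LPL probe sets followed each other over the 12 sows with a Pearson r of 0.84 and a Spearman rho of 0.60, and r was 0.42 without high 3 and low 1.

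The fatty acid binding proteins are small cytosolic carriers. FABP3, the form named for heart muscle, ran from 9.93 through 11.80 to 12.89 in high and from 10.91 through 11.92 to 12.39 in low prolificacy sows. High 3 was the lowest of all sows and high 5 the highest, and the low group lay wholly between them. The means were 11.70 ± 1.07 and 11.81 ± 0.57, a difference of -0.11 (95% interval -1.07 to 0.86, limma with Benjamini-Hochberg, adjusted p = 0.990; exact permutation p = 0.840). The sign turned without high 3, to 0.25.

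FABP5, the epidermal form, was also read by a pair of probe sets. The brighter ran from 9.78 through 11.01 to 11.97 in high and from 10.24 through 10.83 to 11.12 in low prolificacy sows. High 3 and high 5 were the lowest 2 sows and high 4 and high 2 the highest 2, so the low group lay inside the high group here too. The difference was 0.12 (10.85 ± 0.89 against 10.74 ± 0.34, 95% interval -0.65 to 0.88; limma with Benjamini-Hochberg, adjusted p = 0.989). The dimmer probe set gave 7.30 ± 1.05 against 7.22 ± 0.29, a difference of 0.078 (limma with Benjamini-Hochberg, adjusted p = 0.990), and followed the brighter with r = 0.95 and rho = 0.95 over the 12 sows. With the actin 3' minus 5' difference as a covariate the pair differed by -0.50 and -0.69 (limma with Benjamini-Hochberg, adjusted p = 0.512 and 0.377).

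FABP4, the form of adipocytes, macrophages and capillary endothelium, had the widest difference of the set. It read 5.46 in low 1, 5.78 in low 3 and 5.43 in low 5, against 2.67 in low 2, 3.18 in low 4 and 3.05 in low 6. High prolificacy sows lay between 2.43 and 3.01, with a median of 2.55. The transcript was therefore above 4 in 3 low prolificacy sows and no high prolificacy sow, and low 2 lay inside the range of the high group. Across the array 21 of 23999 probe sets were above 4 in at least 3 low and no high prolificacy sows. The pattern counted was that of FABP4 itself, and the reverse pattern was not counted.

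Mean FABP4 was 2.61 ± 0.22 for the high group against 4.26 ± 1.43 for the low group, which differed by -1.65 (3.14-fold higher in low). Values near the floor of GCRMA are compressed, and 9 sows lay below 4. The exact permutation test gave an unadjusted two-sided p of 0.00649, and 153 of 23999 probe sets (0.638%) gave a p as small or smaller. That share is close to the p itself. Limma run without the filter gave an unadjusted p of 0.0144 and, with Benjamini-Hochberg adjustment, an adjusted p of 0.9999, so FABP4 passed no adjusted test. Leaving out 1 sow moved the difference between -1.97 (without low 2) and -1.35 (without low 3), with exact permutation p from 0.00216 to 0.0455. Leaving out the 4 sows with ALB above 6 removes high 5, low 1, low 3 and low 4. The difference was then -1.07 over 5 high and 3 low prolificacy sows (exact permutation p = 0.0536 over 56 assignments). Of those 3 low prolificacy sows only low 5 was above 4.

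The droplet coat protein PLIN2 ran from 6.67 through 7.80 to 9.57 in high and from 7.06 through 7.68 to 8.75 in low prolificacy sows. High 2 was the highest of all sows, followed by low 4 and low 5, and high 4 and high 1 were the lowest. The means were 7.84 ± 1.07 and 7.86 ± 0.65, a difference of -0.022 (95% interval -1.02 to 0.98; limma with Benjamini-Hochberg, adjusted p = 0.997; exact permutation p = 0.970). High 2 also had the highest actin 3' minus 5' difference, and the part of this in its PLIN2 value was not tested. Without high 2 the difference was -0.37, and without high 4 it was 0.21.

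ADIPOQ, the adipocyte hormone adiponectin, was at the floor in every sow, from 2.15 to 2.20 in high and from 2.17 to 2.21 in low prolificacy sows. Its means were 2.18 ± 0.018 and 2.18 ± 0.014, and 11.3% of probe sets had a lower mean. It was not tested.

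**Figure D2:**
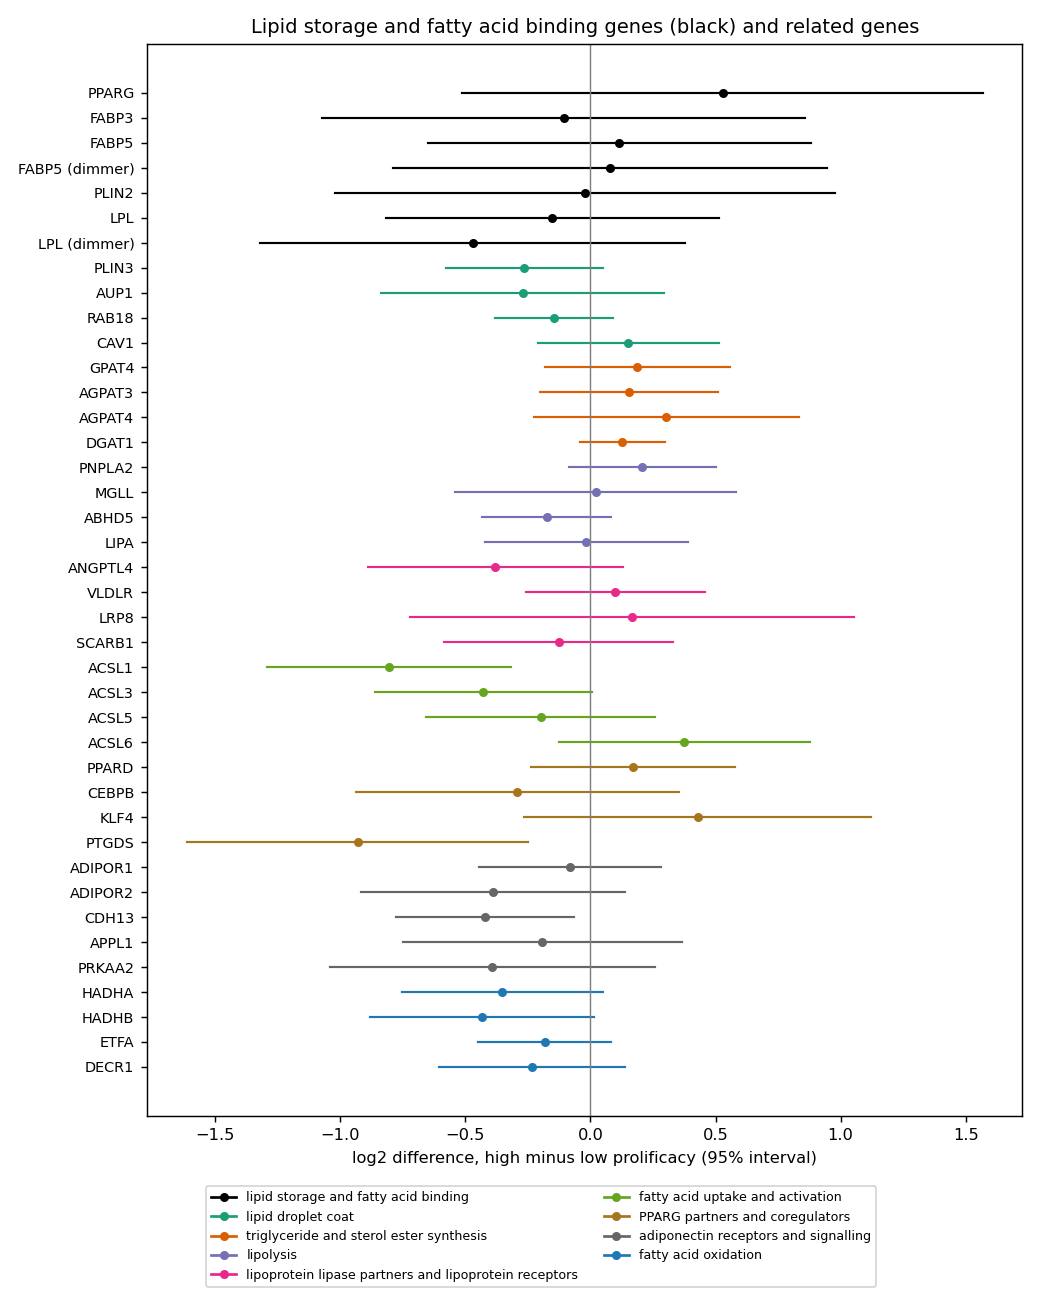
Log2 difference, high minus low prolificacy, with its 95% interval from limma, for the 7 tested probe sets (black) and the named tested genes of the related lists (colours), the brightest probe set of each. All black intervals include 0, with PPARG at 0.53 and the dimmer LPL probe set at -0.47 at the ends, and ACSL1 and PTGDS reach furthest below 0 among the related genes.

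These transcripts varied widely between sows of 1 group. The SD within groups was larger than in 96.9% of tested probe sets for PPARG, 96.3% for PLIN2 and 95.8% for FABP3. For FABP5 it was larger than in 91.5% and 94.1%, and for LPL than in 87.5% and 93.7%. From the lowest to the highest sow PPARG spanned 9.47-fold, FABP3 7.77-fold, PLIN2 7.48-fold and the brighter FABP5 probe set 4.56-fold. The high prolificacy group had the larger SD in 6 of the 7 tested probe sets, where 73.8% of all tested probe sets did, and the exception was the dimmer LPL probe set.

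High 3 held the highest PPARG and the lowest FABP3, brighter FABP5 and LPL values of the 12 sows, on the array that correlated least with the others. Without high 3 the differences became 0.25 for FABP3, 0.33 for the brighter FABP5 probe set and 0.052 for the brighter LPL probe set. The actin 3' minus 5' difference as a covariate moved FABP3 to -0.92, PLIN2 to -0.55 and LPL to -0.45 and -0.89, with adjusted p of 0.321, 0.649, 0.576 and 0.373 by limma with Benjamini-Hochberg. High 5, with the second highest PPARG, had the highest FABP3 and brighter LPL values and nearly the lowest FABP5. PPARG and FABP5 ran against each other with r = -0.76 and rho = -0.50 over the 12 sows, and with r = -0.39 without high 3 and high 5. PLIN2 and the brighter LPL probe set ran together with r = 0.54 and rho = 0.55. FABP4 followed none of the others, with r between -0.28 and 0.11. All such correlations are over the same 12 arrays, share their normalization and cell mixture, and are given as descriptions.

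**Figure D3:**
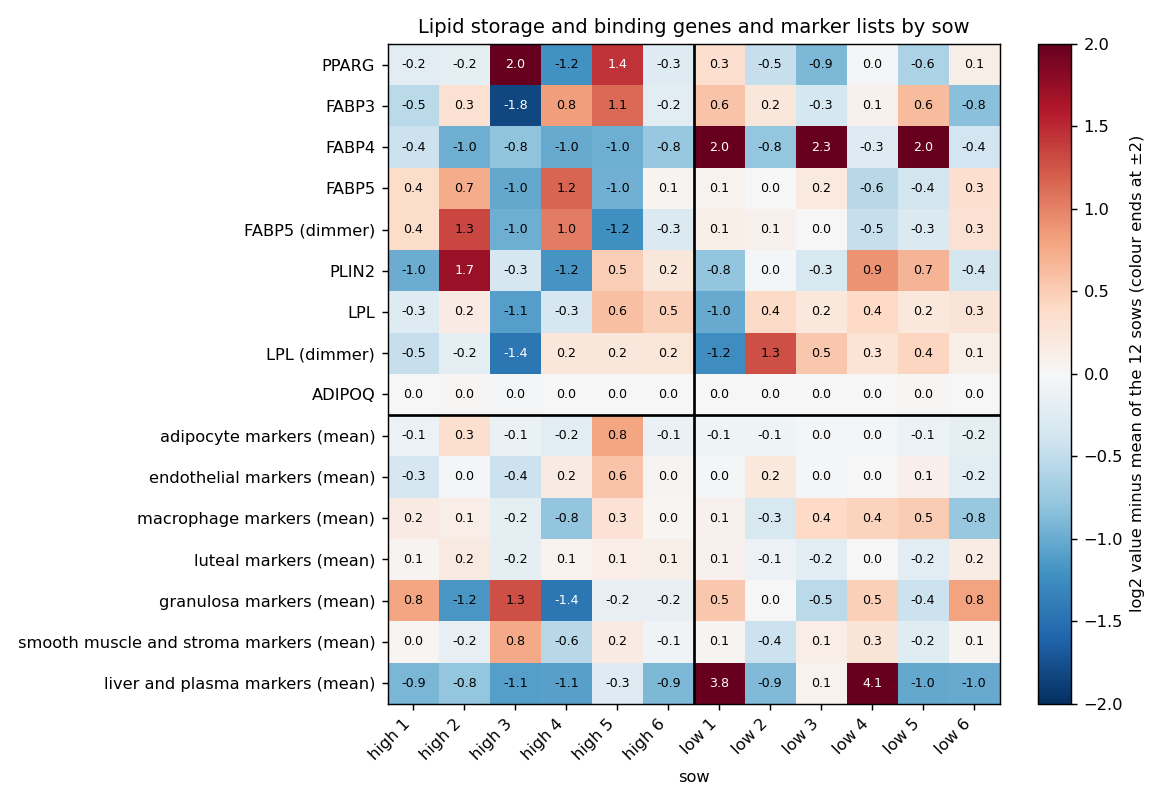
Log2 value minus the mean of the 12 sows, for the 9 probe sets (above the black line) and the mean of each cell type marker list (below it, with SPP1 among the macrophage markers), by sow, in red where above and blue where below the mean. High 3 is highest in PPARG and lowest in FABP3, brighter FABP5 and LPL, FABP4 stands out in low 1, low 3 and low 5, and the liver and plasma markers stand out in low 1 and low 4.

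Marker lists of the cell types that the ovary and its surroundings hold were set beside these genes. Of 8 adipocyte markers on the array only CFD, the complement factor adipsin, passed the filter (7.12 ± 0.46 in high and 7.24 ± 0.36 in low). LEP, CIDEA, GPD1, RETN and ADIPOQ were below 4 in every sow. PCK1, the glyceroneogenic enzyme, read 6.51 in high 2 and 7.54 in high 5 and below 4 elsewhere, and the hormone-sensitive lipase LIPE read 4.61 in high 5 and below 4 elsewhere. The mean of the adipocyte list ran from 2.86 to 3.87 in high and from 2.91 to 3.06 in low prolificacy sows, and was 2.99, 3.06 and 2.97 in low 1, low 3 and low 5, the sows with FABP4 above 4.

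Over all 12 sows PPARG was higher where stromal and granulosa markers were higher, and less so without 2 sows. Its r was 0.80 and rho 0.72 with the mean of 10 smooth muscle and stroma markers (0.44 without high 3 and high 4), which ran from 8.06 to 9.37 in high and from 8.18 to 8.87 in low. With 10 granulosa markers, 5 past the filter, r was 0.63 and rho 0.71, and r was 0.24 without the same 2 sows. Those ran from 4.13 to 6.86 in high and from 5.03 to 6.38 in low prolificacy sows. FABP3 followed 12 endothelial markers, 11 of them past the filter, with r = 0.85, rho = 0.76 and 0.71 without the 2 farthest sows. Their mean ran from 6.47 to 7.48 in high and from 6.69 to 7.12 in low. FABP3 ran against granulosa and stroma markers with r = -0.66 and -0.65, and FABP5 against stroma markers with r = -0.70. Without high 3 and high 4 these were -0.40, -0.12 and -0.29. With the actin 3' minus 5' difference r was 0.49 for FABP3, 0.56 for FABP5 and -0.29 for PPARG. Without high 2 and high 4 it was 0.50, -0.044 and -0.020. Over the 12 sows with each group's mean taken out it was 0.67, 0.64 and -0.62. PLIN2 had r = 0.53 and rho = 0.68 with the adipocyte markers, and the brighter LPL probe set r = 0.58 with the endothelial markers. Without the 2 farthest sows these r were 0.52 and 0.21. The correlations named were picked from those of all genes with all lists, and their size was not tested against chance. The parts of cell mixture and RNA integrity in any of these values were not tested.

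FABP4 and the mean of 10 macrophage markers, of which 9 passed the filter and MARCO was at the floor, had r = 0.48 and rho = 0.50. One of the 10 is SPP1, which also stands below among the transcripts most like FABP4, and the correlation rested on it: over the other 9 markers r was 0.022 and rho -0.063. The mean of all 10 ran from 6.73 to 7.81 in high and from 6.77 to 8.02 in low, with its highest values in low 5, low 4 and low 3. Without SPP1 it ran from 6.79 to 7.78 in high and from 6.62 to 7.59 in low, with its highest values in high 5, high 2 and low 4, and was 7.02 in low 1. With the endothelial markers FABP4 had r = -0.062 and rho = -0.31. ALB and FABP4 had r = 0.43. ALB was 12.61 in low 1 and 8.80 in low 3 but 2.16 in low 5, where FABP4 was 5.43, and 12.40 in low 4, where FABP4 was 3.18. FABP1, the liver form of the family, read 7.63 in low 1 and 6.97 in low 4 and at most 2.35 elsewhere, in the sows with the highest ALB. The liver and plasma list, with 3 of its 14 genes past the filter, ran from 3.75 to 4.60 in high and from 3.82 to 8.91 in low prolificacy sows.

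The transcripts most like each gene over the 12 sows were sought among 6656 tested probe sets of 1 symbol. Those nearest to PPARG were TPM4, a tropomyosin (r = 0.93), RACGAP1, a protein of cytokinesis (0.90), and CENPF, a kinetochore protein (0.90), with 0.78, 0.87 and 0.92 without high 3 and high 5. Nearest to FABP3 were RNF14 (0.92), the secreted protein DKK3 (0.91) and TMX3 (0.91), and nearest to FABP5 the amino acid transporter SLC38A9 (0.88), SLC35D2 (0.85) and CAPZA2 (0.84). Nearest to PLIN2 were BPI (r = 0.87, rho = 0.83), the haem-degrading enzyme HMOX1 (0.87 and 0.92) and IFRD1 (0.83 and 0.84). Nearest to LPL were the caspase regulator CFLAR (0.89), WDR92 (0.87) and PHF11 (0.87). Without the 2 sows farthest from each gene's median, r in the order named was 0.76, 0.85 and 0.77 for FABP3 and 0.86, 0.69 and 0.80 for FABP5. It was 0.82, 0.82 and 0.66 for PLIN2 and 0.73, 0.69 and 0.75 for LPL. SLC35D2 had rho = 0.64. Each was picked as one of the highest r among 6656 probe sets over 12 sows, and its size was not tested against chance.

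For FABP4, which did not pass the filter, the same search was added after its values were seen. It named SMPDL3A, a phosphodiesterase (r = 0.89, rho = 0.86), APLP2 (0.82 and 0.73) and SPP1, the secreted phosphoprotein osteopontin (0.81 and 0.83). SPP1 read 12.82 in low 1, 12.02 in low 3 and 12.68 in low 5, and these were its highest 3 values. It was 11.25 in low 4, where FABP4 was 3.18, and 10.68 in high 3, where FABP4 was 2.64. SMPDL3A was likewise highest in low 1 at 9.95, low 3 at 9.93 and low 5 at 9.54. As these transcripts were picked for their r with FABP4, sharing its highest sows follows in part from that choice. Without low 3 and low 1, r was 0.76 for SMPDL3A, 0.69 for APLP2 and 0.73 for SPP1. Over the 12 sows with each group's mean taken out it was 0.80, 0.65 and 0.76. In the Sscrofa11.1 annotation FABP4 lies near FABP5 on 1 chromosome with 2 genes between them, and their r over the sows was within the range given above for FABP4.

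**Figure D4:**
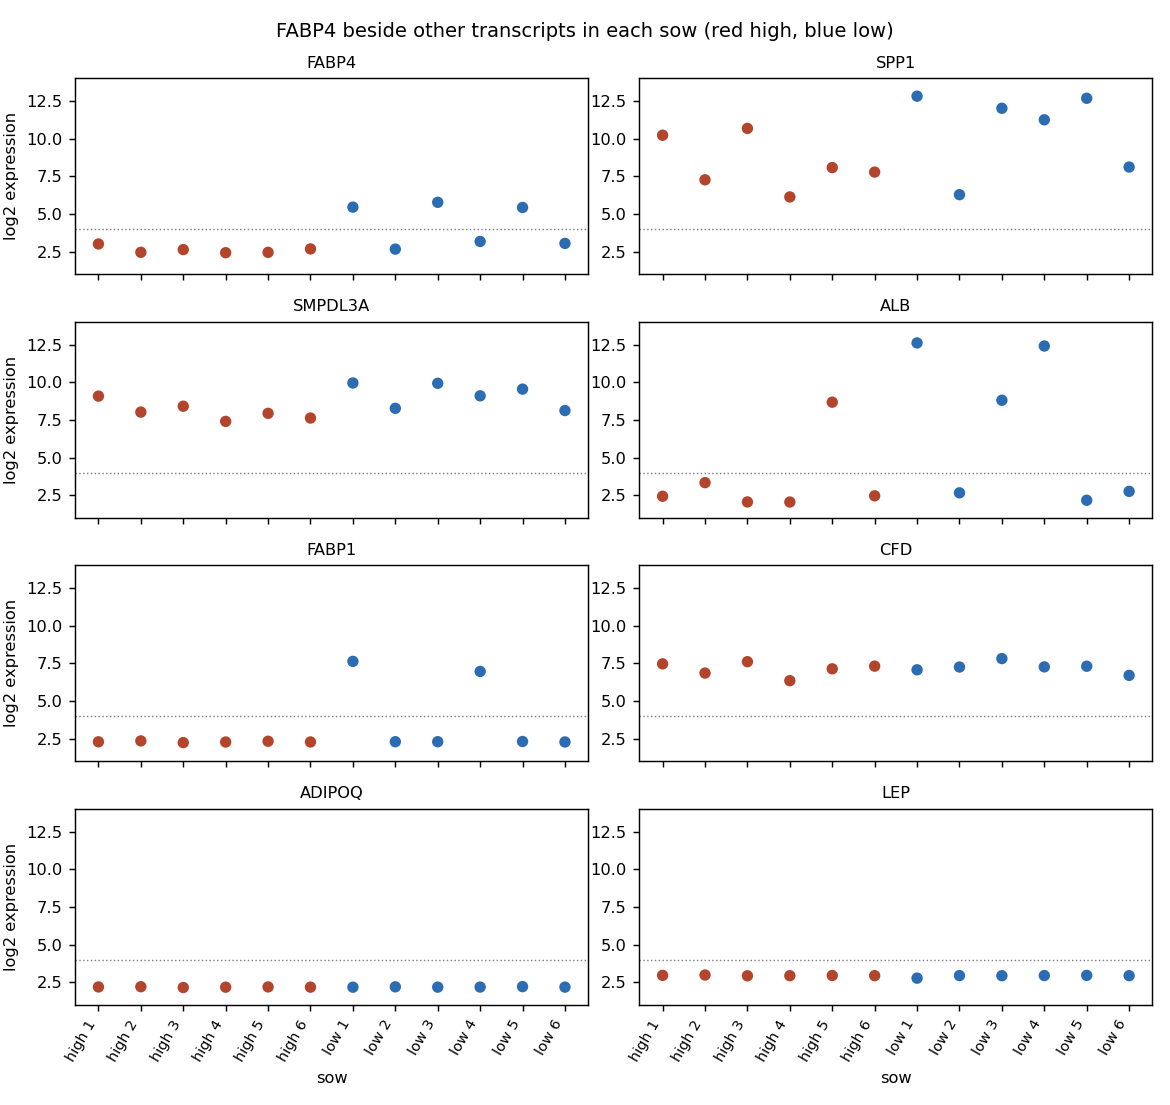
Log2 expression of FABP4 and of 7 other transcripts in each sow, red for high and blue for low prolificacy, with the level of 4 dotted. SPP1 and SMPDL3A were picked for their likeness to FABP4. SPP1 and SMPDL3A are highest in low 1, low 3 and low 5, where FABP4 is above 4, while ALB is high in low 1, low 3, low 4 and high 5, FABP1 is above 4 in low 1 and low 4, and ADIPOQ and LEP are below 4 in all sows.

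The other genes of lipid handling were read by list, as the brightest probe set of each gene, and 0 of them passed the adjusted threshold in either direction. Of 6 tested droplet coat genes 3 were higher and 3 lower in high prolificacy sows, with a median difference of -0.054. PLIN3, the perilipin of small droplets, differed by -0.26, AUP1 by -0.27 and RAB18 by -0.15. CAV1, the caveolae protein, differed by 0.15 in its brightest probe set and by -0.052 and -0.13 in its dimmer ones. Of 10 genes of triglyceride and sterol ester synthesis 6 were higher and 4 lower, with a median of 0.12. GPAT4 and AGPAT4, which add acyl chains to the glycerol backbone, differed by 0.19 and 0.30, and DGAT1, which completes the triglyceride, by 0.13. AGPAT3 differed by 0.15 in its brighter and -0.021 in its dimmer probe set.

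Lipolysis genes were split evenly, with 2 higher and 2 lower of 4 tested and a median of 0.0019. PNPLA2, the first lipase of the droplet, differed by 0.21, its coactivator ABHD5 by -0.17 and the monoglyceride lipase MGLL by 0.021. The lysosomal lipase LIPA differed by -0.017 in its brighter and 0.032 in its dimmer probe set. LIPE was not tested and averaged 2.85 in high and 2.62 in low.

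Of 5 tested partners of lipoprotein lipase and lipoprotein receptors 3 were higher and 2 lower, with a median of 0.0053. ANGPTL4, the secreted inhibitor of lipoprotein lipase, was lower in high prolificacy sows in both its probe sets, by -0.38 and -0.70 (limma with Benjamini-Hochberg, adjusted p = 0.917 and 0.834). VLDLR differed by 0.099 in its brighter and -0.57 in its dimmer probe set, LRP8 by 0.17, and the HDL receptor SCARB1 by -0.13. GPIHBP1, which holds lipoprotein lipase on capillaries, was below 4 in every sow and was not tested.

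Of 7 tested genes of fatty acid uptake and activation 1 was higher and 6 lower, with a median of -0.13, and 1 of the 7 had an unadjusted p under 0.05. That gene was ACSL1, an acyl-CoA synthetase, at 8.68 ± 0.45 in high and 9.48 ± 0.39 in low, a difference of -0.81 (95% interval -1.29 to -0.32; limma with Benjamini-Hochberg, adjusted p = 0.752). Its groups overlapped, with 2 low prolificacy sows inside the range of the high group. The related ACSL3 differed by -0.43 and ACSL5 by -0.20, with 0.015 and -0.59 in its dimmer probe sets. ACSL6, the 1 gene counted as higher, differed by 0.38 in its brighter and -0.16 in its dimmer probe set.

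Of 12 tested PPARG partners 9 were higher and 3 lower, with a median of 0.058. PTGDS, the prostaglandin D synthase whose product gives rise to PPARG ligands, was the 1 with an unadjusted p under 0.05. It averaged 8.24 ± 0.64 in high and 9.17 ± 0.56 in low, a difference of -0.93 (95% interval -1.61 to -0.25; limma with Benjamini-Hochberg, adjusted p = 0.771). KLF4 differed by 0.43, CEBPB by -0.29 and PPARD, a related receptor, by 0.17. RXRA, which pairs with PPARG on DNA, and CEBPA read near the floor in every sow and were not tested.

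Of 12 tested adiponectin receptors and signalling genes 4 were higher and 8 lower, with a median of -0.078. CDH13, the adiponectin-binding cadherin, had an unadjusted p under 0.05 and differed by -0.42 (limma with Benjamini-Hochberg, adjusted p = 0.834). The receptor ADIPOR2 differed by -0.39 and -0.28 in its probe sets, ADIPOR1 by -0.083, the adaptor APPL1 by -0.19 and the AMP-activated kinase subunit PRKAA2 by -0.39. Of 19 tested genes of fatty acid oxidation 4 were higher and 15 lower, with a median of -0.14, and 0 of these brightest probe sets had an unadjusted p under 0.05. HADHB and HADHA, the subunits of the mitochondrial trifunctional protein, differed by -0.43 and -0.35, DECR1 by -0.23 and ETFA by -0.18. The dimmer probe sets of HADHB differed by -0.40 and -0.69 (limma with Benjamini-Hochberg, adjusted p = 0.899 and 0.827).

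These counts stand beside 56.4% of all tested genes lower in high prolificacy sows and 5.64% of probe sets with an unadjusted p under 0.05. The list counts are by gene, whereas the 5.64% is over all tested probe sets. Dimmer probe sets, which the list counts leave out, had limma unadjusted p of 0.0217 for ANGPTL4 and 0.0176 for ACADVL. The dimmest HADHB probe set had a limma unadjusted p of 0.0177. The genes of a list share their sows and vary together, so their number is not a number of independent observations.

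**Figure D5:**
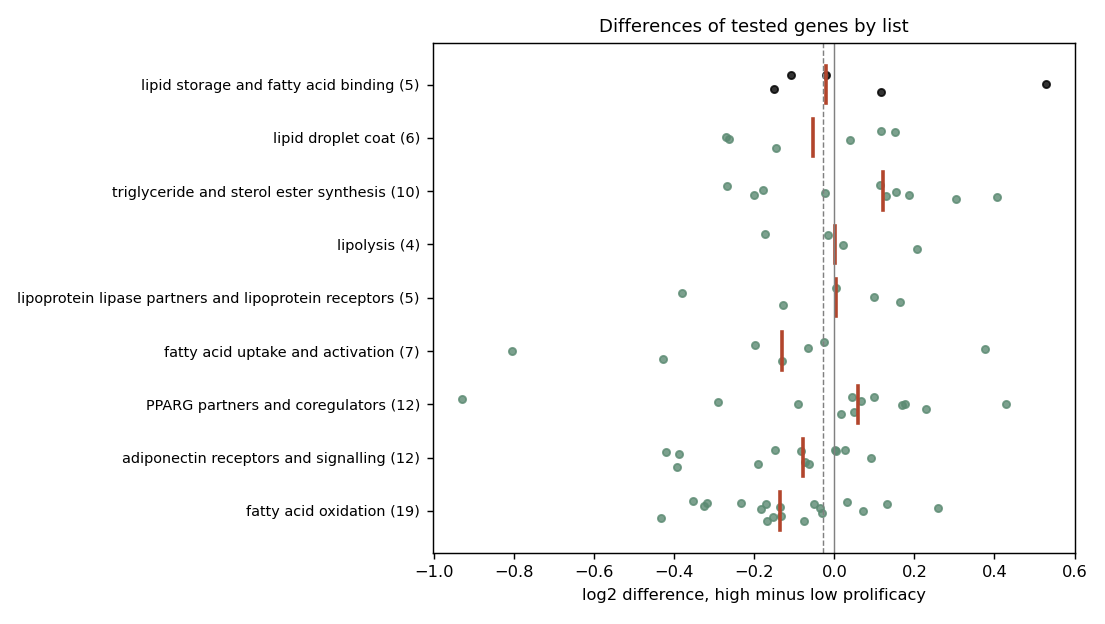
Log2 difference, high minus low prolificacy, of each tested gene by list, with the number of tested genes in brackets, a red bar for the list's median and a dashed line for the median of all tested genes (-0.027). Medians lie between -0.14 (fatty acid oxidation) and 0.12 (triglyceride and sterol ester synthesis), and the genes furthest below 0 are PTGDS and ACSL1.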

How the data were processed

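The deposited table holds log2 expression values per probe set, 1 column per sow. GCOS, the scanner software, and GCRMA are what the authors name, per the submitters' processing notes, without versions. That the scale is log2 was judged from the range of the values, 0.97 to 15.34. The step at which both ovaries were averaged is unstated in the sources used here. GCRMA draws dim probe sets to a floor near 2 and so compresses their differences. The number of sows limits the precision.

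Symbols came from the array annotation, where 10099 of 24123 probe sets had 1 symbol, 198 several and 13826 none. The 124 control probe sets were left out. The names of 62 controls appeared displaced by 21 places against the values and were moved back for the actin difference. All values of that difference rest on this reading. Probe sets above 4 in at least 6 of 12 sows, 13390 in all, entered the limma fit (lmFit, then eBayes; limma 3.58.1, R 4.3.3), two-sided, with Benjamini-Hochberg adjustment and no covariate. Differences were taken within a probe set; the mean of ADIPOQ was ranked among all probe sets only to show that it lies near the floor. Exact permutation tests used all assignments of the sows, 924 for 6 against 6, where the smallest p is 0.00216. With 1 sow left out there were 462 assignments. Without the 4 sows with ALB above 6 there were 56, where p cannot be as small as 0.00216. The fit was tested on simulated data.

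The genes, lists, markers and tests were chosen with earlier results of these data known. All probe sets of the 8 genes are named. From each related list up to 4 tested genes with the smallest p are named, with 13 others where measured. LIPC, APOC2, APOC3 and ACADVL were added after their values were seen. For likeness the 3 genes with the highest Pearson r are given. Alternatives were other filters, normalizations and moderation, array weights, the animal number as a block, ALB or the actin difference as a covariate, and leaving out sows.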

Additional observations from a re-analysis of the deposited data

Results flagged for a closer look

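In 13 of 92 groups of 6 sows examined, 1 sow stood apart from the rest by more than Dixon's critical value for its group size, which chance exceeds in about 5% of groups, and the groups share sows. Among the lipid storage and fatty acid binding genes it did so for the brighter LPL probe set, where low 1 read 7.81 and the next sow 9.03. Among the related genes above the filter, ACSL5 was lowest in low 6 at 7.34, ACSL6 highest in high 2 at 8.61, AGPAT3 highest in high 4 at 7.91 and MGLL highest in low 2 at 9.19. APPL1 was lowest in high 5 at 4.28 and AUP1 lowest in high 2 at 7.07. Among transcripts not tested, LIPE was highest in high 5 at 4.61 and in low 1 at 3.29, and GPIHBP1 in high 5 at 3.58 and in low 4 at 3.06. CEBPA was highest in high 6 at 2.55 and RXRA in low 5 at 1.92, both within the floor.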

How the results depend on the processing

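The count of probe sets past an adjusted p of 0.05 was 0 under all alternatives except those that leave out 1 sow, where it ran from 0 to 1 (1 without low 1). With the animal number as replicate block it was also 0. With the actin 3' minus 5' difference as a covariate, 2178 of 13390 probe sets had an unadjusted p under 0.05 and 0 an adjusted one. Deviations of sows of the same number had correlations from -0.46 to 0.17, over 0.1 in 2 of 6 pairs. Sows of different numbers were not compared, so this cannot decide whether the numbers pair them. PPARG, FABP4 and the dimmer LPL probe set kept their direction under all alternatives run. FABP4, -1.65 (its exact tests with sows left out were added after seeing the data), was past 0.05 without adjustment, by the exact permutation test and by limma without the filter, and not with adjustment. Leaving out 1 sow gave -0.35 to 0.25 for FABP3, -0.11 to 0.33 and -0.18 to 0.33 for FABP5, -0.37 to 0.21 for PLIN2 and -0.37 to 0.052 for the brighter LPL probe set. It gave -0.15 to 0.011 for ADIPOR1, -0.30 to 0.049 for APPL1, -0.088 to 0.092 for LIPA, -0.14 to 0.40 for LRP8, -0.15 to 0.19 for MGLL and -0.26 to 0.011 for SCARB1. Signs turned as follows, and the cause was not tested. Without high 2 and high 3: FABP3 0.25, LPL 0.044, AUP1 0.037, LIPA 0.035 and SCARB1 0.11. With array weights: FABP3 0.037, dimmer FABP5 -0.064, PLIN2 0.056, LPL 0.13, ADIPOR1 0.012, LIPA 0.13, LRP8 -0.045 and SCARB1 0.015. With ALB as a covariate: FABP3 0.12, FABP5 -0.050 and -0.11, PLIN2 0.056. With the actin difference as a covariate: FABP5 -0.50 and -0.69, AUP1 0.036, MGLL -0.23, PPARD -0.14. Without the 4 sows with ALB above 6, chosen after seeing the data: ACSL6 -0.10, APPL1 0.14, GPAT4 -0.022, MGLL -0.25, PPARD -0.021. With median centring LIPA was 0.00226, ADIPOQ 0.014 and RXRA 0.019. Of the list medians, those of the droplet coat and of uptake and activation kept their sign under all alternatives run, and the others did not. Beside leaving out 1 sow, lipolysis ran from -0.22 (actin covariate) to 0.18 and lipase partners from -0.13 to 0.14. Triglyceride synthesis was -0.10 with a filter at 6. Without a change of sign, uptake and activation moved to -0.47 with the actin covariate, and adiponectin signalling to -0.21 without the 4 sows with ALB above 6.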
